A study of Homo sapiens with 95 samples.

Results

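The receptors of the ERBB family, their ligands and a feedback inhibitor were examined in bronchial epithelial cells made to overexpress NRG1 and in 7 other populations of the same cells. The genes were chosen by symbol: NRG1, EGFR, ERBB2, ERBB3, AREG, EREG, HBEGF, TGFA, BTC and ERRFI1, which are 10 of the 23895 genes listed for every well. All 10 were found in every count table.

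AALE cells, a line of human bronchial epithelium made immortal, were grown in 24-well plates and measured by 3′ digital gene expression sequencing (3′DGE), which counts single molecules from the 3′ end of polyadenylated transcripts. Of 95 wells, the 82 with 1-digit replicate numbers form 31 groups, 25 of them with 3 wells, and enter the comparisons, while 13 wells with 2-digit numbers are given apart. NRG1, NRF2 (gene NFE2L2), FGFR1 and PIK3CA were overexpressed, with cells carrying an empty vector and the HcRed reporter as control, and FAT1 and CDKN2A were knocked out by CRISPR, with cells given the Cas9-EGFP plasmid and no guide (called GFP) as control. Every population received 24 µg/ml of a condensate of cigarette smoke (CSC), 173 µM of benzo[a]pyrene (BaP), a polycyclic hydrocarbon, 490 µM of NNK, a nitrosamine of tobacco, or the vehicle DMSO. The length of exposure, the promoters of the vectors and whether any population was a single clone are not given in the sources used here. The study describes its replicates as biological, without saying whether wells of a group were cultured apart before plating, and p-values measure the spread between these wells.

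ERBB receptors are tyrosine kinases of the cell surface that pair with one another when a ligand binds. EGFR binds amphiregulin (AREG), epiregulin (EREG), HB-EGF, TGF-alpha and betacellulin, ERBB3 and ERBB4 bind neuregulins such as NRG1, and ERBB2 has no known ligand and serves as partner of the others. The ligands are made as membrane-bound precursors and released by proteases, and active receptors signal through the MAPK and PI3K pathways to genes that include some of the ligands and feedback inhibitors such as ERRFI1 (MIG6), a protein that binds and blocks the EGFR kinase. In airway epithelium these receptors are known for their part in growth and in repair after injury.

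AREG and EREG, the ligands whose levels moved most often below, are neighbours on chromosome 4. In the hg19 assembly EREG lies at chr4:75230862-75254466 and AREG at chr4:75310853-75320722, both on the plus strand, 56.4 kb apart, with BTC 349.2 kb beyond AREG on the minus strand. The 250 bases upstream of both starts are shown because BaP, used below, is a ligand of the aryl hydrocarbon receptor, whose binding motif holds the core GCGTG. The other motifs searched, also on both strands, belong to factors that act after growth factor signals. They are the cyclic AMP response element, spelled TGACGTCA, and the AP-1 site, for which the letters TGACTCA were searched. The sequences are from RefSeq, matched to GRCh37 (hg19) at chr4:75310603-75310852 for AREG and chr4:75230612-75230861 for EREG, plus strand, with the motifs found in capitals.
AREG: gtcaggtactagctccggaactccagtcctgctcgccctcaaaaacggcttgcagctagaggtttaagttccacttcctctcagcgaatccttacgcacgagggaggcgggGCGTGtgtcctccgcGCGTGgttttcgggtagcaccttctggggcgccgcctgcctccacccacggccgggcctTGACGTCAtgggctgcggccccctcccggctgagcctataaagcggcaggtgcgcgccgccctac
EREG: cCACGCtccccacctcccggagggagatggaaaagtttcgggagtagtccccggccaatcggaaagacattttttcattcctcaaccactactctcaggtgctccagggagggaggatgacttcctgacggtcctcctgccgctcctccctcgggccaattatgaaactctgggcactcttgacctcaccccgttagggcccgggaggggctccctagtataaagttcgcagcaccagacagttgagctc
The AREG window holds the GCGTG core 139 and 124 bases upstream of the start and the cyclic AMP element 65 bases upstream. The EREG window holds a single core, as CACGC, 249 bases upstream. Neither window holds the AP-1 letters. Of 35116 promoters of this length 32.2% hold the aryl hydrocarbon receptor core, 1.65% the cyclic AMP element and 4.2% the AP-1 site, and no motif overlapped another in the windows shown. A match is a description of letters and not a site of binding. The AREG window occurs at 2 places in the assembly, since a near-identical copy of the gene, annotated as AREGB, lies 159.9 kb further along, and because that copy is not a listed symbol the level of AREG is uncertain by any reads both could claim.

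Total counts ran from 692446 to 1895735 per well (median 1293615), and median totals were 1426280 under DMSO and 1171386 under NNK. Levels are given below as the usual CPM, a gene's count scaled to the total of its well. All 11 airway epithelial markers were detected with a mean count above 1, summing to 777 to 1723 CPM, whereas the 6 fibroblast markers summed to at most 15.8 CPM, the 4 endothelial markers to at most 5.42 CPM and the 5 leukocyte markers to at most 9.54 CPM. VWF, CDH5 and CD3E were at 0 in every well. Each plate row held wells of 1 chemical and each population kept its plate columns, so that chemical and row, and population and position, cannot be told apart. The second NNK well of the NRG1 cells stood apart, with a TMM normalization factor of 1.41 against 0.959 and 0.936 in its replicates and the highest level of all 82 wells for 6 of the 10 genes (EGFR, ERBB2, AREG, EREG, TGFA and ERRFI1). Calls that use this well are given with and without it.

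The overexpressed gene was measured first. In NRG1 cells under DMSO, NRG1, the neuregulin ligand of ERBB3 and ERBB4, stood at 101, 106 and 115 CPM. In HcRed cells the 3 DMSO wells held 0, 0 and 0.774 CPM, which is 1 count in all. Over all chemicals the 10 NRG1 wells held 85 to 189 counts each (76.9 to 115 CPM), and the 72 wells of the other populations held 0 to 5 counts, with 26 of them at 0. No well of another population came near the NRG1 wells, whose labels therefore match their content. The counts do not separate transcripts of the construct from those of the cell's own gene. The difference from HcRed cells passed the test under DMSO (limma-voom, adjusted p = 1.46e-11) and under NNK (adjusted p = 1.02e-05). Since HcRed cells held 1 count under DMSO no fold is given. NRG1 had enough counts for these tests only through the NRG1 wells, where it was overexpressed. Its call was therefore fixed by the design, here and wherever NRG1 cells are set against other populations below. NRG1 was likewise higher in NRG1 cells than in each of the 7 other populations under DMSO.

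Between NRG1 and HcRed cells under DMSO, 9 of the 10 genes had enough counts to be tested. Of these 2 were higher in NRG1 cells, AREG and, by design, NRG1 itself. None was lower. Of all 11328 genes tested in that comparison 3.1% passed, 2.1% higher and 0.998% lower. BTC was not tested there.

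**Figure D1:**
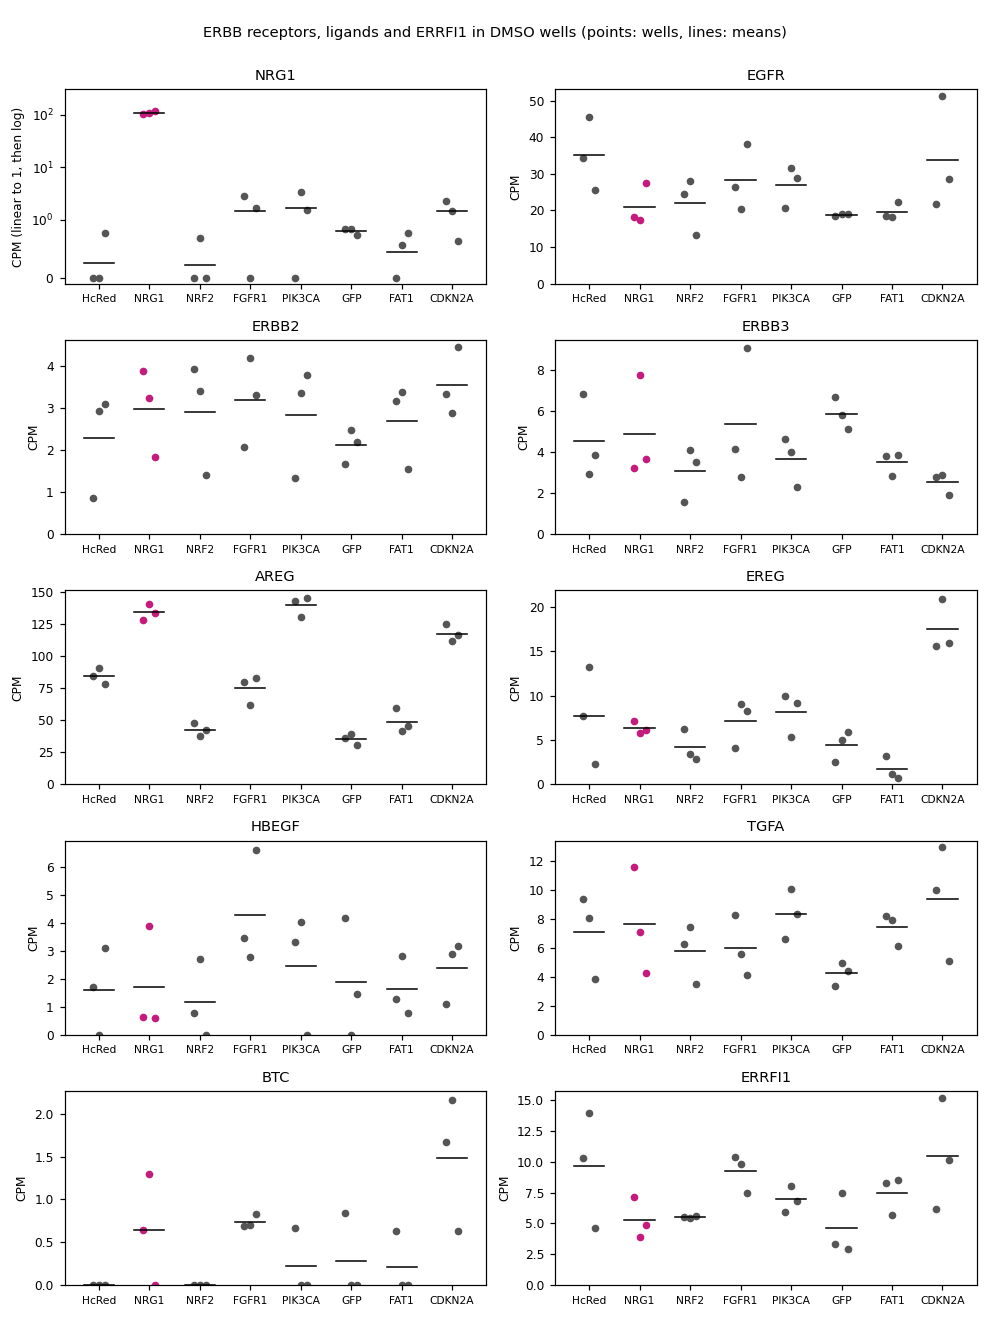
Level in CPM of each of the 10 genes in the 24 DMSO wells, by population. Points are wells, lines are means of 3 wells, NRG1 cells are in magenta, and the axis of NRG1 is linear up to 1 CPM and logarithmic above. NRG1 stands above 100 CPM only in NRG1 cells, AREG is highest in NRG1, PIK3CA and CDKN2A cells, and EREG is highest in CDKN2A cells.

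AREG, a ligand of EGFR, separated the populations under DMSO. It stood at 129, 141 and 133 CPM in NRG1 cells. In HcRed cells it stood at 84.7, 91.2 and 78.2 CPM. The groups did not overlap, and the log2 difference was 0.74 ± 0.11 (SE), with an adjusted p of 2.94e-07. PIK3CA cells, which overexpress the catalytic subunit of PI3-kinase, held 143, 131 and 146 CPM, also above every HcRed well (log2 difference from HcRed 0.78 ± 0.11, adjusted p = 1.86e-07). NRF2 cells, which overexpress a regulator of oxidative stress genes, held 48.0, 37.4 and 42.2 CPM, below every HcRed well (log2 difference -0.91 ± 0.14, adjusted p = 1.17e-06). FGFR1 cells held 79.7, 62.2 and 82.8 CPM, overlapping HcRed wells, with a log2 difference of -0.20 (95% interval -0.50 to 0.10, adjusted p = 0.757). The share of all genes called against HcRed cells was 4.92% for NRF2 (3.39% higher, 1.53% lower), 0.905% for FGFR1 (0.501% and 0.404%) and 5.37% for PIK3CA cells (3.4% and 1.97%). Of the 10 genes AREG alone was called in NRF2 and in PIK3CA cells, and 0 were called in FGFR1 cells (0 also with edgeR). Leaving out NRG1, the log2 differences of the other genes tested, which did not pass, ran from -0.62 (EGFR) to 0.36 (ERBB2) in NRF2, from -0.35 (EGFR) to 1.70 (HBEGF, adjusted p = 0.409) in FGFR1 and from -0.32 (EGFR) to 0.63 (HBEGF) in PIK3CA cells.

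The 2 control populations also differed in AREG. GFP cells held 36.1, 39.0 and 30.8 CPM, below every HcRed well, with a log2 difference of -1.22 ± 0.15 (adjusted p = 4.03e-08), in a comparison that called 10.8% of all genes (5.93% higher, 4.86% lower). Cells without FAT1, an atypical cadherin, held 59.7, 41.3 and 45.5 CPM, and their log2 difference from GFP cells of 0.52 ± 0.17 passed the test (adjusted p = 0.0294, 14.1% of all genes called, 6.49% higher and 7.62% lower) but not with DESeq2 (adjusted p = 0.114) nor without GFP well 1 (0.0523), GFP well 3 (0.149) or FAT1 well 1 (0.181). Cells without CDKN2A, an inhibitor of the cell cycle, held 125, 112 and 116 CPM, above every GFP well (log2 difference 1.62 ± 0.17, adjusted p = 6.97e-13, 17.9% of all genes called, 8.6% higher and 9.28% lower). In order of mean AREG level under DMSO, the populations ran PIK3CA (140 CPM), NRG1 (134), CDKN2A (118), HcRed (84.7), FGFR1 (74.9), FAT1 (48.8), NRF2 (42.6) and GFP (35.3). PIK3CA wells overlapped NRG1 wells, HcRed wells overlapped FGFR1 wells, FAT1 wells overlapped NRF2 wells, and NRF2 wells overlapped GFP wells. CDKN2A wells overlapped neither neighbour in this order. FGFR1 wells (62.2 CPM or more) lay above FAT1 wells (59.7 CPM at most).

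EREG, which binds EGFR and ERBB4, did not pass the test between NRG1 and HcRed cells. It stood at 7.11, 5.84 and 6.09 CPM in NRG1 cells under DMSO. In HcRed cells it stood at 7.70, 13.2 and 2.32 CPM. The groups overlapped, and the log2 difference was 0.04 with a 95% interval of -0.76 to 0.84 (adjusted p = 0.975). The highest EREG was in CDKN2A cells, at 15.6, 20.9 and 15.9 CPM, against 2.52, 4.98 and 5.86 CPM in GFP cells. These groups did not overlap, and the log2 difference was 1.80 ± 0.39 (adjusted p = 0.000228). FAT1 cells held the lowest EREG, at 3.17, 1.13 and 0.772 CPM, but their difference from GFP cells did not pass the test (log2 difference -1.30, adjusted p = 0.151).

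EGFR, the receptor of both ligands, stood at 18.1, 17.5 and 27.4 CPM in NRG1 cells under DMSO. In HcRed cells it stood at 34.2, 45.6 and 25.6 CPM. The groups overlapped by 1 well each, and the log2 difference of -0.65 ± 0.20 missed the threshold (adjusted p = 0.0593), although edgeR gave an adjusted p of 0.0285. EGFR also passed without HcRed well 3 (-0.85, adjusted p = 0.011) or NRG1 well 3 (-0.87, adjusted p = 0.0235). In GFP cells EGFR stood at 18.5, 19.1 and 19.1 CPM, below every HcRed well, with a log2 difference of -0.80 ± 0.22 (adjusted p = 0.0114). That call was lost with DESeq2 (adjusted p = 0.0511) and without HcRed well 2 (adjusted p = 0.137). CDKN2A cells ranged from 21.8 to 51.1 CPM, and their log2 difference from GFP cells was 0.61 (adjusted p = 0.065).

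ERBB2 and ERBB3, the receptors that pair in neuregulin signalling, were called in no comparison. Over the 82 wells ERBB2 ran from 0 to 6.10 CPM (median 2.40), with 3 wells at 0. ERBB3 ran from 1.06 to 12.3 CPM (median 4.14). Both were counted in single molecules, at most 9 and 12 counts per well, which limits what can be told from them. The 95% interval of the log2 difference between NRG1 and HcRed cells under DMSO was -0.78 to 1.57 for ERBB2 and -0.74 to 1.06 for ERBB3. Differences as large as those bounds, in either direction, are therefore compatible with the counts. The log2 difference of ERBB3 between CDKN2A and GFP cells, -1.25, did not pass the test (adjusted p = 0.067).

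The remaining EGFR ligands were low as well. TGFA, the gene of TGF-alpha, ran from 0.813 to 18.98 CPM (median 6.33), and its log2 difference between NRG1 and HcRed cells was 0.14 (95% interval -0.62 to 0.89). HBEGF, the gene of HB-EGF, ran from 0 to 7.18 CPM (median 1.64) with 11 wells at 0, and its difference was 0.29 (-1.39 to 1.97). BTC, the gene of betacellulin, was at 0 in 55 of 82 wells and reached 3 counts at most. BTC had enough counts for a test between CDKN2A and GFP cells (log2 difference 1.44, adjusted p = 0.301) and not in the other 17 comparisons of the study's design examined here. None of these 3 ligands was called in any of the comparisons.

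ERRFI1, the feedback inhibitor, stood at 7.11, 3.89 and 4.87 CPM in NRG1 cells under DMSO. HcRed wells held 10.3, 14.0 and 4.65 CPM. The groups overlapped, and the log2 difference was -0.69 (95% interval -1.45 to 0.07, adjusted p = 0.439). Over the 8 populations the DMSO wells ran from 2.93 to 15.1 CPM, and ERRFI1 was called between no populations under DMSO.

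NRG1 cells were then set against the mean of the other populations, which asks how they sit among all lines rather than beside their control. Under DMSO, 2 of 9 genes tested were higher, NRG1 (by design) and AREG, where 3.45% of 11595 genes passed (2.82% higher and 0.63% lower). AREG differed by 1.02 ± 0.094 on the log2 scale (adjusted p = 7.57e-17). The difference was 0.84 when the mean was taken over HcRed, NRF2, FGFR1 and PIK3CA cells only. EREG (0.23), EGFR (-0.21), ERRFI1 (-0.39), ERBB2 (0.13), ERBB3 (0.29), TGFA (0.16) and HBEGF (-0.24) did not pass. The median log2 difference of the 9 genes, NRG1 included, was 0.16, beside 0.01 over all genes.

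Taken singly under DMSO, AREG was higher in NRG1 cells than in 6 of the 7 populations, in contrasts that share the NRG1 wells, and than in 5 without NRG1 DMSO well 2 or well 3. The log2 difference was 1.96 from GFP, 1.66 from NRF2, 1.45 from FAT1, 0.97 from FGFR1, 0.76 from HcRed and 0.37 ± 0.12 from CDKN2A cells (adjusted p = 0.0218), while from PIK3CA cells it was -0.04 ± 0.12 (adjusted p = 0.929). The share of all genes called higher in these contrasts was 4.7% against GFP, 2.63% against NRF2, 5.84% against FAT1, 2.65% against FGFR1, 0.543% against HcRed, 9.76% against CDKN2A and 1.57% against PIK3CA cells. EREG was higher than in FAT1 cells (1.85, adjusted p = 0.0195), a call lost without NRG1 DMSO well 1. It was lower than in CDKN2A cells (-1.23 ± 0.32, adjusted p = 0.00297). Neither EGFR nor ERRFI1 was called against any population. The summed level of the fibroblast markers under DMSO ran from 6.46 to 15.8 CPM in NRG1 cells, from 5.96 to 11.4 CPM in PIK3CA cells and up to 8.31 CPM elsewhere, and 1 gene, DCN, the proteoglycan decorin, made up nearly all of it in NRG1 and PIK3CA cells (54 counts and 5.82 to 15.8 CPM in NRG1 cells, 33 counts and 5.96 to 10.1 CPM in PIK3CA cells, 10 counts in HcRed cells). COL1A1 held 1 count in NRG1 and 1 in PIK3CA cells, and COL1A2, COL3A1 and PDGFRB held 1 count each in the 82 wells together. CDKN2A cells, with high AREG, held 1.27 to 4.32 CPM of the fibroblast markers in all. Their part in the result was not tested.

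**Figure D2:**
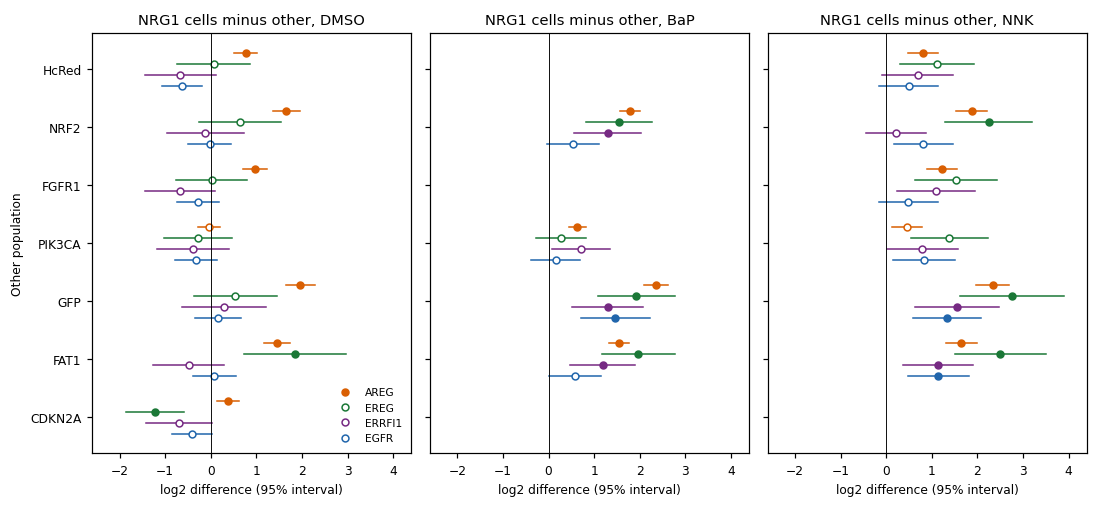
Log2 difference between NRG1 cells and each other population for AREG, EREG, ERRFI1 and EGFR, under DMSO (7 populations), BaP (4) and NNK (6), with 95% intervals. Filled points passed an adjusted p of 0.05 over all genes, and populations without 3 wells are left out. AREG is filled against 6 of 7 populations under DMSO, 4 of 4 under BaP and 5 of 6 under NNK.

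AREG was higher under each of the 3 chemicals than under DMSO in every population examined. Among the wells under CSC, HcRed cells held 215, 263 and 309 CPM, NRF2 cells 128, 148 and 115 CPM and PIK3CA cells 390, 377 and 368 CPM. GFP cells held 98.7, 106 and 113 CPM and FAT1 cells 145, 125 and 132 CPM. In all 5 populations each CSC well exceeded each DMSO well, which held for 0.431% of genes, and the ratios of the means ran from 2.70 to 3.10. Fitted across these populations the log2 difference was 1.54 ± 0.056 (adjusted p = 1.02e-36). The single CSC wells of NRG1 and FGFR1 cells stood at 403 and 239 CPM and enter no test.

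Under BaP, AREG stood at 357, 277 and 292 CPM in NRG1 cells. It stood at 105, 89.2 and 73.4 CPM in NRF2 cells, at 190, 207 and 204 CPM in PIK3CA cells, at 47.2, 76.6 and 61.8 CPM in GFP cells and at 119, 97.3 and 96.4 CPM in FAT1 cells. All of these wells lay above every DMSO well of their population, in 5 of 5 populations, as did those of 0.433% of genes, with ratios of 1.43 (PIK3CA) to 2.30 (NRG1). The log2 difference across populations was 0.96 ± 0.063 (adjusted p = 2.56e-20).

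Under NNK, AREG stood at 302, 421 and 271 CPM in NRG1 cells. HcRed wells held 131, 163 and 216 CPM, NRF2 wells 91.1, 69.5 and 72.4 CPM, FGFR1 wells 133, 120 and 131 CPM and PIK3CA wells 178, 232 and 217 CPM. GFP wells held 47.3, 58.1 and 72.4 CPM and FAT1 wells 83, 77.1 and 96.3 CPM. Again all wells exceeded the DMSO wells of the same population, in 7 of 7 populations, as did those of 0.264% of genes, with ratios of 1.495 to 2.47. The log2 difference was 0.92 ± 0.062 (adjusted p = 5.67e-22), and 0.92 without the NRG1 well that stood apart.

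**Figure D3:**
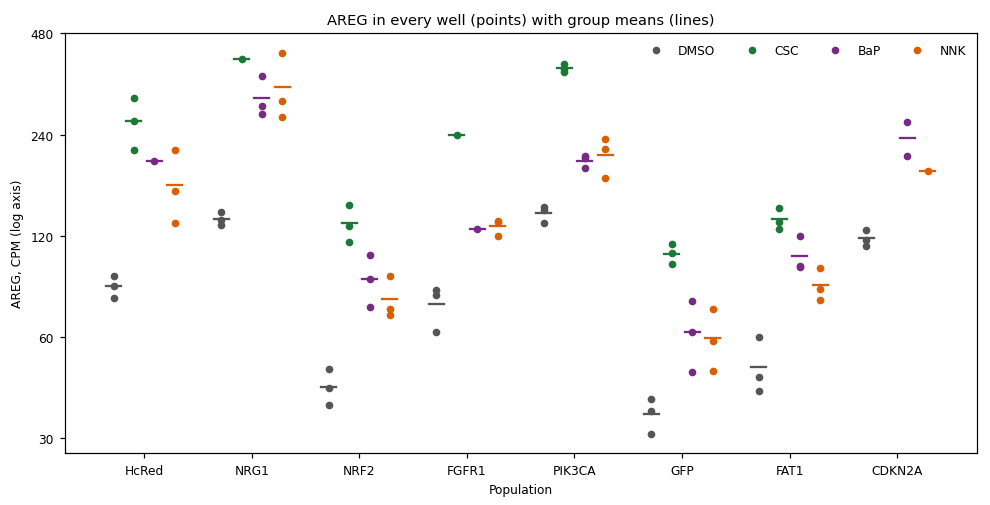
AREG level in CPM (log axis) in the 82 wells, by population and chemical. Points are wells and lines are group means. Within every population the CSC, BaP and NNK wells lie above the DMSO wells, and the NRG1 and PIK3CA wells under CSC are all at 368 CPM or more.

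Of the other genes, few answered the chemicals. CSC raised 2 of 9 genes tested, AREG and EREG, where 5.82% of all genes passed (2.95% higher, 2.87% lower). BaP raised AREG and EREG, where 9.11% passed (4.68% higher, 4.43% lower), and NNK raised AREG alone, where 7.22% passed (3.06% higher, 4.16% lower). NRG1 was called lower under BaP, but it had enough counts for that test only through the NRG1 wells. The BaP wells of NRF2, PIK3CA, GFP and FAT1 cells held 0, 4, 2 and 1 of its counts in all. That call therefore describes NRG1 cells and not the other populations. The comparisons share their DMSO wells.

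EREG stood at 10.6, 12.8 and 21.01 CPM in HcRed, at 7.70, 11.3 and 5.13 CPM in NRF2 and at 11.9, 22.8 and 16.5 CPM in PIK3CA cells under CSC. It stood at 3.59, 5.50 and 4.48 CPM in GFP cells and at 3.59, 6.29 and 7.38 CPM in FAT1 cells. PIK3CA and FAT1 wells lay above all their DMSO wells and the others overlapped. The log2 difference under CSC was 1.02 ± 0.20 (adjusted p = 0.000138). Under BaP it was 0.74 ± 0.18 (adjusted p = 0.00235), but without the NRG1 wells it was 0.52 (adjusted p = 0.134). Under NNK it was 0.28 with a 95% interval of -0.11 to 0.67 (adjusted p = 0.441). The difference of NRG1 under BaP was small (log2 difference -0.34 ± 0.12, adjusted p = 0.0475): NRG1 cells held 83.7, 91.7 and 80.5 CPM under BaP, below all their DMSO wells, and the call was lost in 10 of 10 alternative fits (adjusted p from 0.0577 to 0.691).

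ERRFI1 differed by 0.54 on the log2 scale under BaP and missed the threshold (95% interval 0.17 to 0.91, adjusted p = 0.0519). The log2 difference of EGFR was -0.14 for CSC, -0.19 for BaP and -0.24 for NNK (adjusted p = 0.248 for NNK). EGFR was called under NNK when the NRG1 wells, or their second NNK well alone, were left out, where 18.1% and 19.8% of all genes passed. ERBB2, ERBB3, HBEGF and TGFA did not pass under any chemical.

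**Figure D4:**
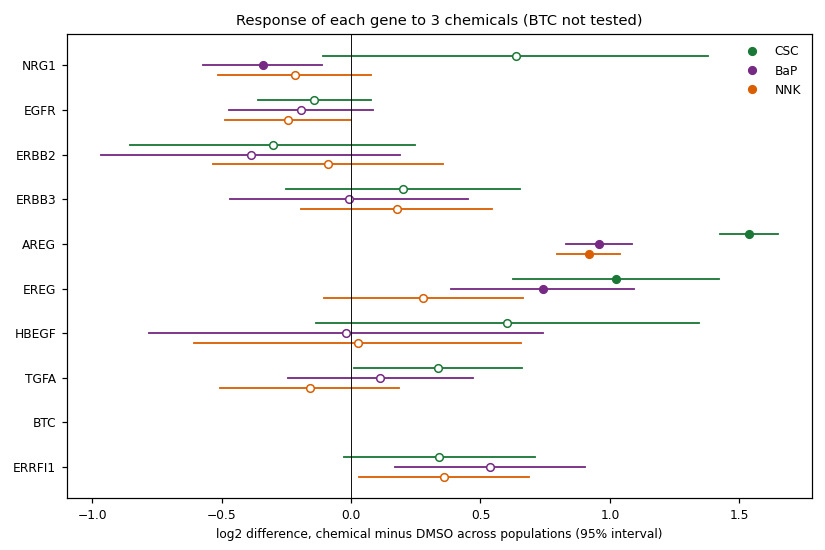
Log2 difference between each chemical and DMSO across populations, with 95% intervals, for 9 of the 10 genes (BTC had too few counts to be tested). Filled points passed an adjusted p of 0.05 over all genes. AREG is filled under all 3 chemicals, EREG under CSC and BaP, and NRG1 under BaP with a negative difference. NRG1 had enough counts for the BaP test only through the NRG1 wells.

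Within NRG1 cells, BaP raised 3 of 9 genes tested, AREG, EREG and ERRFI1, where 0.886% of all genes passed (0.492% higher, 0.394% lower). AREG rose by 1.21 ± 0.095 on the log2 scale (adjusted p = 2.14e-16). EREG, at 19.7, 12.98 and 12.3 CPM under BaP, lay above every DMSO well (log2 difference 1.23 ± 0.32, adjusted p = 0.0361). ERRFI1, at 21.8, 12.1 and 11.4 CPM, did so too (1.51 ± 0.35, adjusted p = 0.00896). Without NRG1 DMSO well 2, DMSO well 3 or BaP well 1 both calls were lost (adjusted p from 0.16 to 0.212 for EREG and from 0.0873 to 0.132 for ERRFI1), and without DMSO well 1 that of EREG was lost (0.0892). EGFR was at 37.8, 12.1 and 31.2 CPM, overlapping DMSO.

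NNK in NRG1 cells called 0 of the 9 genes with limma-voom, where 0.00866% of all genes passed and 368 had an unadjusted p under 0.05. DESeq2 called 1, AREG, where 0.026% of all genes passed. AREG had a log2 difference of 1.13 ± 0.24 and did not pass (adjusted p = 0.288). Its wells lay above every DMSO well, but the share of all genes that did so was not computed. Without well 2, the one that stood apart, the difference was 1.16 (adjusted p = 1.39e-19). EREG was at 8.81, 37.3 and 14.0 CPM, ERRFI1 at 8.81, 30.5 and 9.92 CPM and EGFR at 17.6, 93.6 and 18.2 CPM. In well 2 the level of EGFR was 5.23 times, that of TGFA 4.04 times, that of EREG and ERRFI1 3.26 times, that of AREG 1.47 times and that of NRG1 1.18 times the mean of the other wells. What sets the well apart was not tested.

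**Figure D5:**
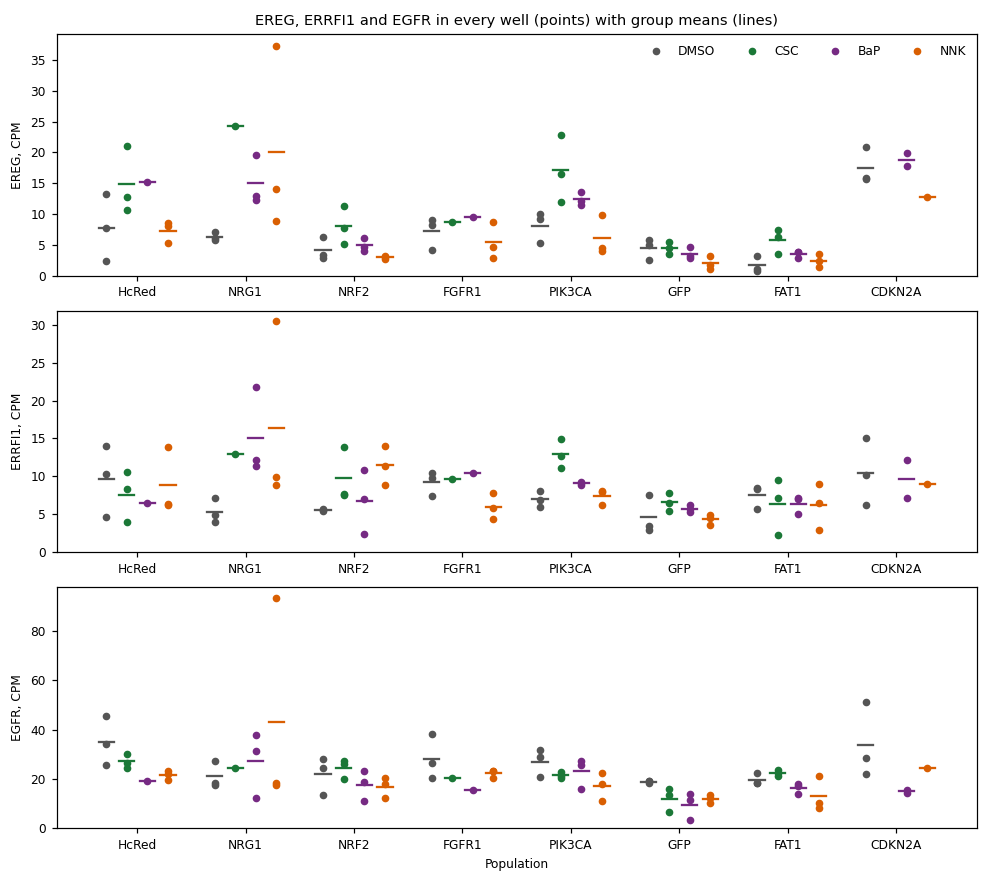
Levels in CPM of EREG, ERRFI1 and EGFR in the 82 wells, by population and chemical. Points are wells and lines are group means. The second NNK well of the NRG1 cells is the highest point of each panel (37.3, 30.5 and 93.6 CPM), and EREG in CDKN2A cells is high under DMSO already.

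Between NRG1 and HcRed cells under NNK, NRG1 itself passed and AREG did not (log2 difference 0.82 ± 0.26, adjusted p = 0.879), in a comparison that called 0.116% of all genes (0.0178% higher, 0.0981% lower). Without well 2 the difference of AREG was 0.81 (adjusted p = 7.33e-07) and that of EGFR turned from 0.44 to -0.24. The AREG wells of the 2 groups did not overlap, but the share of all genes so separated was not computed. EREG (1.09), ERRFI1 (0.67), ERBB2 (0.32), ERBB3 (-0.82), TGFA (-0.17) and HBEGF (-0.03) did not pass, and BTC was not tested. Without well 2, EREG differed by 0.61 and ERRFI1 by 0.22.

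NRG1 cells were also set against the mean of the other populations under BaP and NNK. Under BaP 4 of 9 genes tested were higher, NRG1 (by design), AREG, EREG and ERRFI1, and none was lower (6.01% of all genes passed, 3.8% higher and 2.2% lower). AREG differed by 1.58 ± 0.079 on the log2 scale (adjusted p = 8.53e-27), EREG by 1.43 ± 0.25 (adjusted p = 2.2e-05) and ERRFI1 by 1.12 ± 0.25 (adjusted p = 0.00153), which without NRG1 BaP well 1 was 0.82 (adjusted p = 0.177). EGFR missed the threshold at 0.69 ± 0.22 (adjusted p = 0.0516), but passed with edgeR (0.75, adjusted p = 0.00236), with a block for replicate number (0.74, adjusted p = 0.00834) and without NRG1 BaP well 2 (1.11, adjusted p = 0.000105). ERBB2 (0.42), ERBB3 (-0.13), TGFA (0.15) and HBEGF (-0.34) did not pass. The median log2 difference of the 9 genes, NRG1 included, was 0.69, beside 0.03 over all genes. HcRed, FGFR1 and CDKN2A cells had fewer than 3 BaP wells and are not in this mean. Their mean EREG under BaP was 18.8 CPM in CDKN2A (2 wells), 15.2 CPM in HcRed (1 well) and 9.54 CPM in FGFR1 cells (1 well). NRG1 cells held a mean of 15.0 CPM, so that their EREG was not the highest among all populations under BaP. The AREG and ERRFI1 means of the populations left out were below those of NRG1 cells.

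Under NNK 5 of 9 were higher, NRG1 (by design), AREG, EREG, ERRFI1 and EGFR, and none was lower (6.1% of all genes passed, 3.28% higher and 2.82% lower). AREG differed by 1.39 ± 0.12 on the log2 scale (adjusted p = 2.31e-12) and EREG by 1.92 ± 0.27 (adjusted p = 1.24e-06). ERRFI1 (0.91 ± 0.26, adjusted p = 0.024) and EGFR (0.85 ± 0.23, adjusted p = 0.0169) rested on well 2. Without it ERRFI1 differed by 0.44 (adjusted p = 0.628) and EGFR by 0.12 (adjusted p = 0.894), whereas EREG kept its call at 1.42 (adjusted p = 0.00203), as did AREG. ERBB2 (0.39), ERBB3 (-1.10, adjusted p = 0.109), TGFA (0.58) and HBEGF (-0.85) did not pass. CDKN2A cells, with 1 NNK well (EREG at 12.8 CPM), are not in this mean.

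The contrasts with single populations, again sharing the NRG1 wells, showed where these differences lay. Under BaP, AREG was higher in NRG1 cells than in all 4 populations, by 2.36 from GFP, 1.79 from NRF2, 1.54 from FAT1 and 0.63 ± 0.094 from PIK3CA cells (adjusted p = 9.81e-07) on the log2 scale. Of all genes, 5.18%, 3.71%, 6.48% and 1.84% were higher in these contrasts. EREG and ERRFI1 were higher than in GFP, NRF2 and FAT1 cells (EREG by 1.93, 1.54 and 1.96, ERRFI1 by 1.30, 1.30 and 1.19), and the differences from PIK3CA cells, 0.28 for EREG and 0.71 for ERRFI1, did not pass. EGFR was higher than in GFP cells (1.46 ± 0.38, adjusted p = 0.0046), where it stood below its DMSO wells under BaP.

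Under NNK, AREG was higher in NRG1 cells than in 5 of 6 populations, and the exception was again PIK3CA (0.46 ± 0.16, adjusted p = 0.11). Without well 2 the difference from PIK3CA cells was 0.47 (adjusted p = 0.0115), so that AREG was higher than in all 6. These contrasts take their spread from 7 populations, and the one with HcRed (0.81, adjusted p = 0.00469) passed here and not in the fit of those 2 groups alone given above. EREG was higher than in NRF2 (2.25), GFP (2.76) and FAT1 cells (2.50). ERRFI1 and EGFR were higher than in GFP and FAT1 cells, by 1.56 and 1.14 for ERRFI1 and by 1.33 and 1.14 for EGFR, and these calls were lost without well 2, at 1.08 and 0.67 for ERRFI1 and 0.61 and 0.41 for EGFR, whereas those of EREG held (1.75, 2.26 and 1.996). The shares of all genes called higher ran from 0.0628% against HcRed to 4.18% against FAT1 cells.

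A wider gap under a chemical than under DMSO was tested as a difference of responses, and 0 of the 9 genes passed with limma-voom. Against the mean of the other populations the BaP response of AREG in NRG1 cells differed by 0.29 ± 0.12 on the log2 scale (95% interval 0.06 to 0.53, adjusted p = 0.627), that of EREG by 0.72 (-0.06 to 1.5004) and that of ERRFI1 by 1.27 (0.47 to 2.08, adjusted p = 0.55), where 0.00884% of all genes passed. For NNK the differences were 0.25 for AREG (-0.06 to 0.55, adjusted p = 0.384), 1.45 for EREG (0.61 to 2.28, adjusted p = 0.0918), 1.25 for ERRFI1 (0.43 to 2.06, adjusted p = 0.11) and 1.03 for EGFR (0.43 to 1.62, adjusted p = 0.0918), where 0.185% passed. edgeR called EREG and EGFR for NNK, where 1.94% of all genes passed. Without well 2 the difference by limma-voom was 0.29 for AREG, 0.97 for EREG, 0.80 for ERRFI1 and 0.31 for EGFR. Against PIK3CA cells, which matched NRG1 cells in AREG under DMSO, the BaP response of AREG was larger by 0.63 ± 0.14 with an adjusted p of 0.154 by limma-voom and of 0.0187 by edgeR.

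Genes around the receptors were taken from 3 lists, of which single genes outside the naming rule were picked after their values were seen. Among 6 other ERBB receptors and ligands, 2 had enough counts between NRG1 and HcRed cells under DMSO, and 0 passed. Among 23 genes for shedding proteases, adaptors and receptor turnover, 0 of 19 tested passed. Among 32 early and delayed growth factor response genes, 0 of 24 tested passed, with a median log2 difference of 0.16 beside -0.03 over all genes. Against the mean of the other populations under DMSO, SHC1, an adaptor that links ERBB receptors to RAS, was higher (0.68, adjusted p = 0.0207), as was CCND1, the gene of cyclin D1 (1.05 ± 0.13, adjusted p = 5.92e-10). CCND1 stood at a mean of 45.7 CPM in NRG1, 47.3 CPM in HcRed, 40.3 CPM in PIK3CA and 51.7 CPM in CDKN2A cells, and at 10.6 to 19.8 CPM in the other populations. SHC1 stood at 18.6 CPM in NRG1, 15.6 CPM in HcRed and 27.5 CPM in CDKN2A cells.

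Growth factor response genes were also compared between chemicals and DMSO. Under CSC 12 of 26 tested were higher, under BaP 8 of 26 and under NNK 9 of 24, and 0 were lower under each, where 2.95%, 4.68% and 3.06% of all genes were higher, with medians of 0.60, 0.39 and 0.41 on the log2 scale. EGR1, an immediate early transcription factor, rose by 1.52 in CSC wells, by 1.52 in BaP wells and by 1.92 in NNK wells (adjusted p = 4.05e-15, 1.13e-15 and 8.83e-24). FOS, a subunit of AP-1, rose by 1.52, 1.48 and 1.96, and DUSP1, a phosphatase of MAP kinases, by 1.08, 0.95 and 0.98. FOSL1, another AP-1 subunit, rose by 1.89 under CSC. Without the NRG1 well that stood apart the count under NNK stayed at 9, where 9.97% of all genes were higher. EPGN, the gene of the EGFR ligand epigen, rose by 1.46 under CSC (adjusted p = 0.000391).

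In NRG1 cells against the mean of the other populations, 10 of 26 growth factor response genes were higher under BaP, where 3.8% of all genes were, and 4 of 26 without NRG1 BaP well 1. Under NNK 9 of 25 were higher, where 3.28% of all genes were, but without well 2 this fell to 2 of 23, CCND1 and DUSP6, where 1.76% of all genes were. DUSP6, a phosphatase of ERK, was higher by 1.17 on the log2 scale under BaP (0.78 without NRG1 BaP well 1, adjusted p = 0.338) and by 2.07 under NNK (1.999 without well 2). CCND1 was higher by 1.72 and 1.39 (1.40 without well 2). FOSL1 was higher by 2.13 and 1.77, the latter falling to 0.90 without well 2 (adjusted p = 0.544). The BaP mean lacks HcRed, FGFR1 and CDKN2A cells, and the NNK mean lacks CDKN2A cells. Under DMSO, mean CCND1 was 47.3 CPM in HcRed and 51.7 CPM in CDKN2A cells beside 45.7 CPM in NRG1 cells. Against HcRed cells alone under NNK, 0.0178% of all genes were higher in NRG1 cells. How far the makeup of the means set these differences was not tested. In the tests of the responses themselves, 0 genes of these lists passed. Within NRG1 cells BaP raised 3 of 26, EGR1 (1.60), FOS (2.10) and PHLDA1 (1.40), where 0.492% of all genes were higher. Without DMSO well 2 or DMSO well 3 EGR1 alone passed, and PHLDA1 was also lost without DMSO well 1 (adjusted p = 0.159) or BaP well 1 (0.0602).

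Across the 31 group means of log2 CPM, the genes whose pattern was most like that of AREG among 5653 with a mean count of at least 10 were TMEM156 (Pearson r = 0.915), IL1A (0.853) and INO80C (0.838). For EREG they were SLC20A1 (0.900), TMEM156 (0.861) and THBS1 (0.855). For EGFR they were GALNT1 (0.820), CCT4 (0.805) and G3BP2 (0.802), for ERRFI1 CHD1L (0.707), SLC20A1 (0.672) and EREG (0.668), and for NRG1 MCFD2 (0.654), NRP1 (0.637) and TPD52L2 (0.635). AREG and EREG correlated at 0.824, AREG and ERRFI1 at 0.661 and AREG and EGFR at 0.355 over the same groups, which share chemicals, plate rows and unequal numbers of wells, so that these values describe the groups and carry no p.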

How the data were processed

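The files deposited hold raw counts of UMIs for each gene in each well, which the authors received already quantified. BWA aln 0.7.10 had placed reads on RefSeq transcripts of hg19, and each UMI was counted once per gene. Only 3′ ends are read, so transcripts of different 5′ or coding structure are not told apart. CPM is each count divided by the total of its well. Groups and numbers came from sample titles, and wells with 2-digit numbers, which the labels do not explain, entered no test.

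In R 4.3.3, limma 3.58.1 with voom weights and TMM factors from edgeR 4.0.16 was fitted over all genes with a mean count above 1, with two-sided tests and Benjamini-Hochberg adjustment over all of them at 0.05. Comparisons of 2 groups used those wells only. Where the wells of 2 groups are said not to overlap, this describes those wells only. The share of all genes so separated was computed only for chemicals across populations and for wells with 2-digit numbers. Comparisons with the mean of populations used groups of 3 wells, and chemical effects had population as covariate. With 4 residual degrees of freedom in a comparison of 2 groups, small p-values rest mostly on variance shared between genes. edgeR and DESeq2 1.42.0 were alternatives. Scripts were tested on simulated data.

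The genes and lists were chosen with earlier results of these data known. All 10 genes were examined in every comparison and named, or covered by a range or count where they did not pass, together with up to 5 genes per list past the threshold between NRG1 cells and HcRed cells or the mean of the other populations under DMSO, and the 3 genes most like each gene with a mean count of at least 10. Contrasts of NRG1 with single populations under BaP and NNK and differences of responses between pairs of populations were chosen after seeing the data. So were fits without NRG1 wells, means without GFP, FAT1 and CDKN2A cells, and counts of growth factor response genes without single wells.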

Additional observations from a re-analysis of the deposited data

Results flagged for a closer look

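The 13 wells with 2-digit replicate numbers entered no comparison, and levels in them lay above every DMSO well of their population in several cases. For AREG this held in 13 of 13 wells, where 0.203% of 11356 genes did so. The mean AREG level of these wells was 449 CPM in NRG1, 272 CPM in FGFR1 and 254 CPM in CDKN2A cells under CSC, 155 CPM in HcRed and 133 CPM in FGFR1 cells under BaP, and 166 CPM in CDKN2A cells under NNK. The wells of NRG1 cells under CSC, at 457 and 440 CPM, stood above the 82 wells with 1-digit numbers. For EREG 8 of 13 wells lay above, with means of 16.7 CPM in NRG1, 11.7 CPM in FGFR1 and 30.8 CPM in CDKN2A cells under CSC. For ERRFI1 6 of 13 wells lay above, with means of 13.8 CPM in NRG1 and 11.2 CPM in FGFR1 cells under CSC. The means are of groups in which every such well lay above. For both genes no HcRed well under BaP and no CDKN2A well with a 2-digit number under NNK lay above. The share of all genes with as many wells above was not computed for EREG and ERRFI1, so that these 2 counts are descriptions only. These wells were compared with DMSO wells by their ranges and were not tested.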

How the results depend on the processing

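The values recomputed were counts of genes called among the 10, counts of populations with lower AREG than NRG1 cells, and the mean AREG level of NRG1 cells under DMSO. Of these 277 stayed, which for a count means within 1.5 times the reported one, and 37 moved. A single gene gained can fall within that bound, as EGFR did between NRG1 and HcRed cells under DMSO. AREG between NRG1 and HcRed cells under DMSO kept its call under every alternative run that gave an adjusted p, and AREG was called higher than 5 to 6 of the 7 populations without single NRG1 wells. DESeq2 gave no adjusted p (its filter on low counts) for 75 of 160 tests of these genes, 4 of them called by limma-voom, and these are not counted as lost.

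Percentages below are the shares of all genes called in the same alternative fit. Between 2 groups under DMSO, GFP against HcRed (2 genes called) gave 1 with DESeq2 (5.92%) and 1 with a single fit over all groups (7.15%). Without single wells it gave 1 to 2 (8.55% where 1). FAT1 against GFP (1) gave 0 with DESeq2 (7.68%), 0 with the single fit (10.6%) and 0 to 1 without single wells (11.1% to 11.8% where 0). Without single wells NRF2 against HcRed gave 1 to 2 (4.64% where 2). CDKN2A against GFP gave 2 to 4 (EGFR and ERRFI1 were added without CDKN2A well 1, where 15.1% were called). NRG1 against HcRed under NNK (1) gave 2 with the single fit (2.38%) and 1 to 2 without single wells (0.991% where 2). BaP in NRG1 cells (3) gave 1 to 3 without single wells (0.559% to 1.19% where 1). NNK in NRG1 cells (0) gave 1 with DESeq2 (0.026%), 2 with the single fit (0.555%) and 0 to 1 without single wells (1.78% where 1). NRG1 against the mean under NNK (5) gave 3 without NRG1 well 2 (2.44%). It also gave 3 against the mean of HcRed, NRF2, FGFR1 and PIK3CA cells alone (5.94%). BaP across populations (3) gave 1 with the single fit (6.19%), 1 without replicate 2 (4.63%) and 1 without NRG1 wells (7.95%). NNK (1, with 7.22% in the main fit) gave 2 without replicate 2 (12.7%), without NRG1 well 2 (19.8%) or without NRG1 wells (18.1%). The NNK response against the mean (0, with 0.185% in the main fit) gave 2 with edgeR (1.94%) and 2 with the single fit (3.6%). Without single wells it gave 0 to 3 (13.4% and 14.3% where 3). The BaP response against PIK3CA (0) gave 1 with edgeR (0.00884%). NNK responses against HcRed, FGFR1 and FAT1 (0) reached 1, 1 and 2 without single NRG1 wells, where 3.9% to 5.46% of all genes were called. The gained calls thus came with more calls among all genes. The causes were not tested.

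Signs turned for values that had not passed. Between NRG1 and HcRed cells under DMSO, EREG was -0.23 with edgeR and -0.22 with the replicate block, and HBEGF -0.037 with the block. Without single wells EREG ran from -0.60 to 0.59, HBEGF from -0.79 (also -0.411) to 0.99, ERBB2 from -0.024 to 0.68, ERBB3 from -0.20 (also -0.13) to 0.46 and TGFA from -0.21 to 0.50. Without single wells EGFR ran from -0.24 to 0.77 against HcRed under NNK and from -0.14 to 0.81 for NNK in NRG1 cells, the lower values being without NRG1 NNK well 2, and from -0.047 (without NRG1 BaP well 1) to 0.72 for BaP in NRG1 cells. The difference of AREG responses to BaP against FAT1 ran from -0.039 to 0.11, and to NNK against HcRed from -0.036 to 0.12, with -0.00291 by edgeR.

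Replicate numbers did not pair the wells: in 0 of 10 comparisons of 2 groups did every pair of same-numbered wells correlate above 0.1, with values from -0.114 to 0.102. With the replicate block NRG1 against HcRed under DMSO called 3 of these genes, EGFR being added (adjusted p = 0.0419), against 2 without it. Over comparisons the share of all genes called ran up to 17.9% with limma-voom, 18.8% with edgeR, 10.8% with DESeq2, 13.6% without the filter on low counts and 19.4% with the replicate block.

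Depth limited ERBB2, ERBB3, HBEGF, TGFA and BTC, which had at most 9, 12, 8, 28 and 3 counts in a well, so that a missed threshold does not show equal levels for them. NRG1, FGFR1 and CDKN2A cells had fewer than 3 CSC wells and are not in the CSC comparison.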
